A study of Mus musculus with 6 samples.

Results

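The MYC, MAX and MXD network is a family of transcription factors, and 10 of its genes were followed among the 41388 genes counted in KP2 cells: Myc, Mycl, Max, Mxd1, Mxd3, Mxd4, Mxi1, Mnt, Mlx and Mlxip. They were chosen by mouse gene symbol, all 10 were found once, and all 10 passed the filter on low counts. KP2 is a pancreatic cancer line from a KPC mouse of the strain C57BL/6J, used below 10 passages. The groups were IRAK4 KO + rescue (here the rescue), IRAK4 KO (the KO) and Wild-type, with 2 libraries each. The KO was made by infection with plentiCRISPR vectors that carry guide RNAs against Irak4. The rescue cells carry the same KO, the rescue construct is not described in the sources used here, and neither is any vector in the wild-type cells, nor whether a group is 1 clone or a pool. IRAK4 is a kinase downstream of Toll-like and interleukin-1 receptors that leads to NF-kB activity, and the groups allow transcripts to be compared after its loss and after its rescue. Nothing in the labels says whether the 2 libraries of a group are separate cultures, and the p-values therefore rest on a spread between libraries that may be technical. In bulk RNA, fewer cells of a kind and less RNA per cell cannot be told apart.

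MYC proteins bind DNA as dimers with MAX, at sites built round the E-box CACGTG, and activate genes of ribosome synthesis, nucleotide synthesis and the cell cycle. MXD proteins and MNT take MAX away from MYC, sit on the same sites and bring the SIN3 corepressor with its histone deacetylases. MLX is a second partner, which joins some MXD proteins and MNT and, with MLXIP (MondoA), carries a glucose-responsive branch of the network.

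The libraries held 7605328 to 11505983 counts. Irak4 itself had 492 and 211 normalised CPM (counts scaled to a common library size) in the rescue, 20.4 and 21.8 in the KO, and 37.9 and 37.6 in wild type, so that the first rescue library had more of it than the second. The KO level was lower than wild type by 0.84 on the log2 scale without passing the test (SE 0.33, adjusted p = 0.057), and 5 of 12 alternative fits called it. The rescue level was above wild type by 3.22 on the log2 scale, so the rescue was not a return to the wild-type level. Of 8 ductal or epithelial markers, 6 reached 1 CPM in every library. Their sum was 4730 to 5600 CPM in the rescue, 3840 to 3940 in the KO and 6680 to 6990 in wild type. The 4 mesenchymal markers summed to 7780 to 10000 CPM in the rescue, 5720 to 5800 in the KO and 10100 to 10700 in wild type, again lowest in the KO. The 3 endothelial markers, of which 1 reached 1 CPM in every library, summed to 14.8 to 38.0 CPM in the rescue, 16.0 to 30.6 in the KO and 4.63 to 5.28 in wild type. The part of these shifts in the members' differences was not tested. The leukocyte markers Cd3e, Lyz2 and Adgre1 were at 0 in every library.

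In the KO, 4 of the 10 members fell against wild type and 1 rose. The fallen members were Myc and Mycl, which encode activators, and Mxi1 and Mxd1, which encode repressors, and the member that rose was the repressor gene Mxd3. Among all 12339 genes tested, 23.5% were called lower and 23.2% higher (edgeR's quasi-likelihood test, adjusted p under 0.05). Changes were thus common in this comparison, and the network's share of calls, 5 of 10, lay near the 46.8% of all genes. The median log2 fold change was -0.22 over the members and 0.01 over all genes tested. With only the groups compared 2 members were called higher and 5 lower, beside 3254 and 3371 of 12362 genes. In the rescue Myc and Mxi1 were higher than in the KO, whereas Mycl and Mxd1 remained lower than in wild type and Mxd3 higher.

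**Figure D1:**
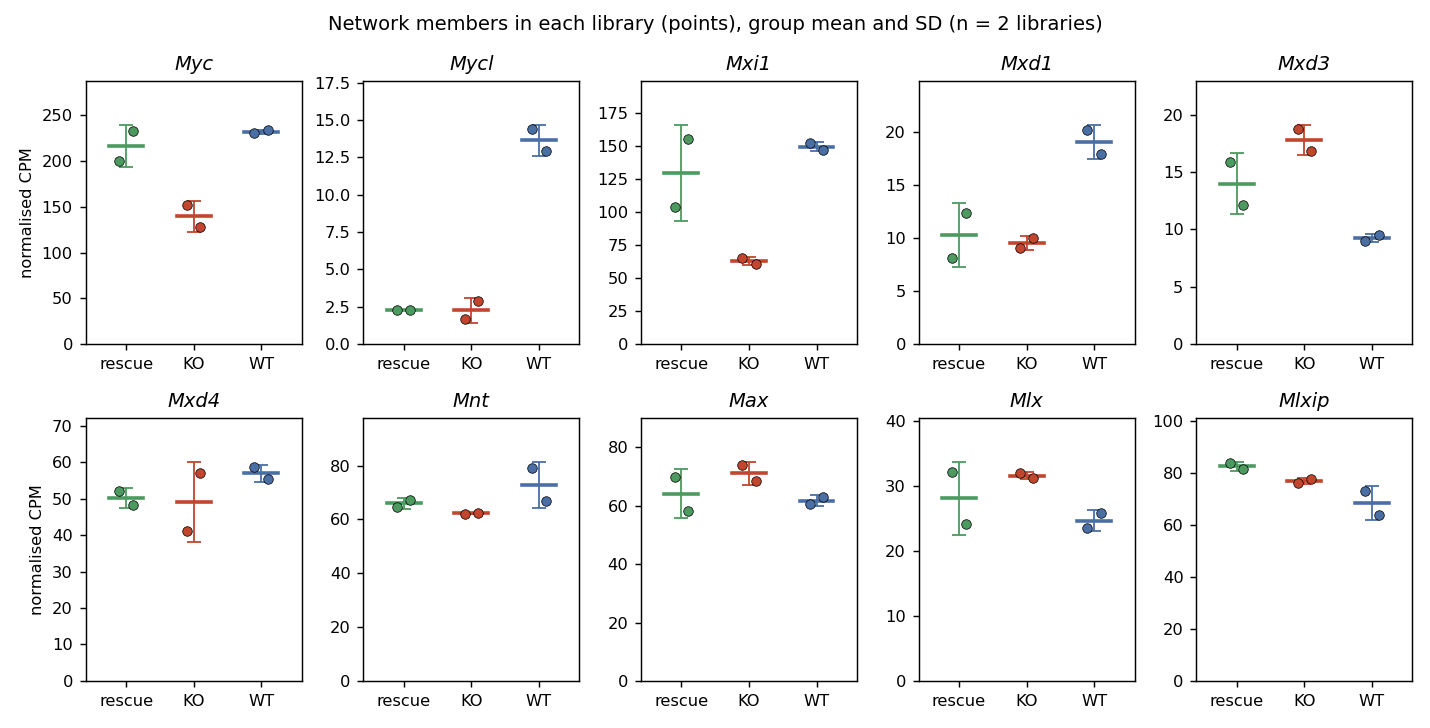
Normalised CPM (vertical axes, from 0, a scale per panel) of the 10 members in the rescue, KO and wild-type (WT) libraries; points are libraries, bars the group mean and whiskers the SD (n = 2). The KO points of Myc and Mxi1 lie below both other groups, and those of Mycl and Mxd1 lie below wild type beside similar rescue points.

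Myc (ENSMUSG00000022346, GRCm38 chromosome 15, 61985341 to 61990374, plus strand) encodes the central activator of the network. It had 201 and 233 normalised CPM in the rescue, 152 and 128 in the KO, and 231 and 234 in wild type. Both KO libraries lay below all other libraries, and the rescue and wild-type values overlapped. The KO mean of 139.9 ± 16.9 CPM was 1.66-fold lower than the wild-type mean of 232 ± 2.07 CPM (SD, n = 2 each; log2 fold change -0.73, SE 0.10, adjusted p = 1.8e-04). In the rescue Myc was 1.55-fold higher than in the KO (log2 fold change 0.63, SE 0.10, adjusted p = 0.0040). That difference was 0.51 without the second KO library and did not pass (adjusted p = 0.063). Against wild type the rescue differed by -0.10 (SE 0.10, adjusted p = 0.53).

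Mycl (ENSMUSG00000028654, chromosome 4, 122995652 to 123002485, plus strand) encodes L-MYC, a paralog of MYC that also pairs with MAX. It was the least abundant member, with 18 and 17 counts in the rescue, 20 and 25 in the KO, and 121 and 132 in wild type. In normalised CPM these counts were 2.28 and 2.26 in the rescue, 1.67 and 2.87 in the KO, and 14.4 and 12.9 in wild type. The wild-type libraries stood apart from the other 4, which overlapped each other. Mycl fell 6.17-fold in the KO (log2 fold change -2.63, SE 0.25, adjusted p = 1.2e-05), the lowest fold change of the 10 members. It was 5.95-fold lower in the rescue than in wild type (adjusted p = 4.0e-05). Between the rescue and the KO the log2 difference was 0.05 with an SE of 0.34 (adjusted p = 0.94), so that at this depth a moderate difference could not have been detected.

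Mxi1 (ENSMUSG00000025025, chromosome 19, 53310506 to 53375810, plus strand) encodes MXI1, also called MXD2, a MAX partner that represses MYC targets. Its levels were 104 and 155 normalised CPM in the rescue, 64.9 and 60.7 in the KO, and 152 and 147 in wild type. The KO libraries were again the lowest, and the second rescue library lay above both wild-type libraries while the first lay between the KO and wild type. Mxi1 fell 2.38-fold in the KO (log2 fold change -1.25, SE 0.15, adjusted p = 6.0e-05). It was 2.06-fold higher in the rescue than in the KO (log2 fold change 1.04, SE 0.15, adjusted p = 0.0025). Against wild type the rescue difference of -0.21 did not pass (adjusted p = 0.34), but without the second rescue library it was -0.52 (adjusted p = 4.9e-04). The remaining log2 difference from wild type in the rescue was 0.164 of the KO difference for Mxi1, and 0.135 for Myc.

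Mxd1 (ENSMUSG00000001156, chromosome 6, 86647044 to 86669159, minus strand) encodes MAD1, a repressor best known from differentiating cells. It had 8.12 and 12.4 normalised CPM in the rescue, 9.03 and 9.97 in the KO, and 20.2 and 17.9 in wild type. The rescue and KO values overlapped, and wild type lay above both. Mxd1 fell 2.01-fold in the KO (SE 0.19 on the log2 scale, adjusted p = 0.0011) and was 1.86-fold lower in the rescue than in wild type (adjusted p = 0.0069). The rescue call was lost without the first wild-type library (log2 fold change -0.81, adjusted p = 0.074). The difference between the rescue and the KO was 0.11 (SE 0.21, adjusted p = 0.76).

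Mxd3 (ENSMUSG00000021485, chromosome 13, 55325168 to 55329758, minus strand) encodes MAD3, the MXD protein known from dividing cells in S phase. It moved the other way, with 15.9 and 12.1 normalised CPM in the rescue, 18.7 and 16.8 in the KO, and 9.02 and 9.48 in wild type. The 3 groups did not overlap, with the rescue between the KO and wild type. Mxd3 rose 1.92-fold in the KO (log2 fold change 0.94, SE 0.17, adjusted p = 8.0e-04). In the rescue it was 1.51-fold higher than in wild type (log2 fold change 0.60, adjusted p = 0.033), a call that 6 of 12 alternative fits did not keep. The log2 difference between the rescue and the KO was -0.35 (SE 0.16, adjusted p = 0.17). An exon of Mxd3 overlaps 104 bases of Prelid1 on the other strand, and with no strand setting given reads of the overlap cannot be told apart. Prelid1 had 262 and 250.4 normalised CPM in the rescue, 259 and 263 in the KO, and 267 and 272 in wild type.

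The other 5 members were not called in any of the 3 comparisons. Max (ENSMUSG00000059436, chromosome 12, 76937269 to 76962248), the shared partner of MYC, MXD and MNT, had 70.0 and 58.3 normalised CPM in the rescue, 74.0 and 68.4 in the KO, and 60.6 and 63.0 in wild type. Both KO values of Max lay above wild type, by a log2 fold change of 0.21 (SE 0.10, adjusted p = 0.12). Mnt (ENSMUSG00000000282, chromosome 11, 74830920 to 74845725), a broadly expressed repressor, had 64.5 and 67.4 normalised CPM in the rescue, 62.1 and 62.5 in the KO, and 79.0 and 66.7 in wild type. Its KO difference was -0.22 (SE 0.10, adjusted p = 0.081), with both KO values below wild type, and 4 of 12 alternative fits called it.

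Mxd4 (ENSMUSG00000037235, chromosome 5, 34173887 to 34187720), which encodes MAD4, had 52.1 and 48.3 normalised CPM in the rescue, 41.3 and 57.0 in the KO, and 58.7 and 55.4 in wild type. The KO libraries lay further apart than the group means, and the KO difference of -0.23 (SE 0.13, adjusted p = 0.18) was -0.47 without the second KO library (adjusted p = 0.015) and -0.01 without the first. Mlx (ENSMUSG00000017801, chromosome 11, 101087277 to 101092207) had 32.1 and 24.1 normalised CPM in the rescue, 32.0 and 31.2 in the KO, and 23.5 and 25.8 in wild type. The KO values of Mlx lay above wild type and just missed the threshold (log2 fold change 0.36, SE 0.14, adjusted p = 0.0501), which 5 of 12 alternative fits passed. Mlx shares 385 bases of an exon with Psmc3ip on the other strand, which had 11.3 and 7.99 normalised CPM in the rescue, 13.8 and 13.9 in the KO, and 7.60 and 6.94 in wild type; its part in the Mlx counts was not tested. Mlxip (ENSMUSG00000038342, chromosome 5, 123394798 to 123457932), which encodes MondoA, had 83.8 and 81.4 normalised CPM in the rescue, 76.1 and 77.6 in the KO, and 73.1 and 63.8 in wild type. Its largest difference, 0.27 on the log2 scale, was that of the rescue against wild type (SE 0.09, adjusted p = 0.056).

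**Figure D2:**
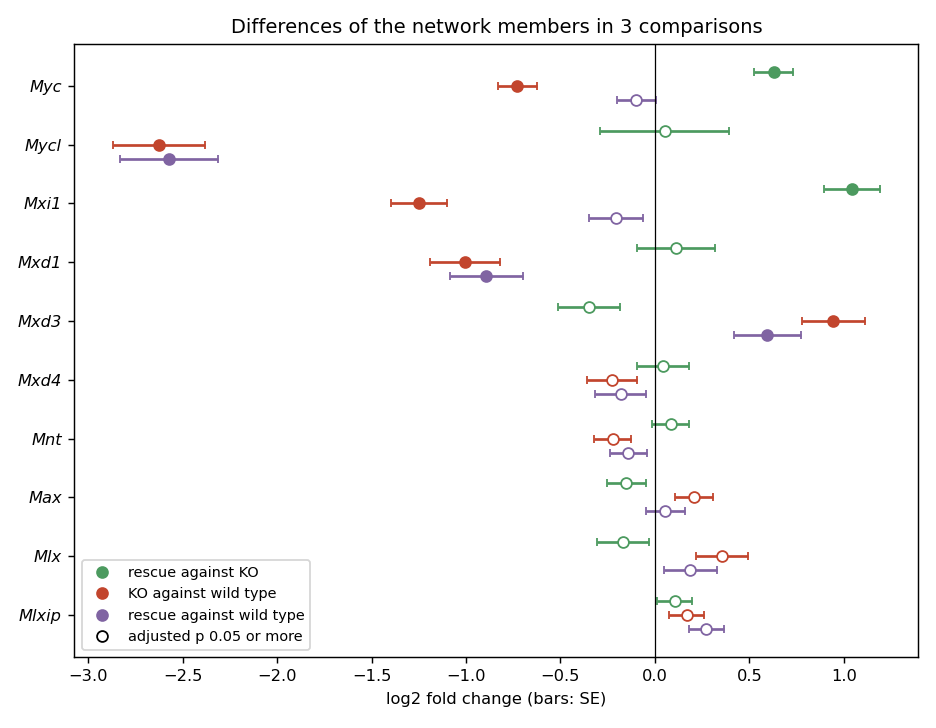
Log2 fold changes (horizontal axis, bars are SE) of each member for the rescue against the KO, the KO against wild type and the rescue against wild type; filled points have an adjusted p under 0.05. Myc and Mxi1 are filled on the left for the KO and on the right for the rescue against the KO, and Mycl has the lowest values, -2.63 and -2.57.

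Of the members, 2 of 10 were called higher in the rescue than in the KO, Myc and Mxi1, and none lower, beside 8.35% higher and 5.88% lower over all genes tested (14.2% in either direction). The counts were also 2 and 0 at an unadjusted p under 0.05 and by DESeq2, which called 796 and 378 of 12339 genes. On leaving out 1 library the members' median log2 fold change ranged from -0.02 to 0.14. Against wild type, 1 of 10 was called higher in the rescue, Mxd3, and 2 lower, Mycl and Mxd1, beside 10.2% and 12% of all genes (22.2% in either direction). There DESeq2 called 0 members higher and 2 lower, beside 751 and 1086 of 12339 genes. Each of these comparisons shares a group with that of the KO against wild type, so the values of a member stand side by side and are not independent.

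Levels between genes can be compared only per length, and for this the deposited RPKM (CPM per kilobase of listed gene length) served. In the KO Myc stood first at 52.8 ± 6.10 RPKM, followed by Max at 37.1 ± 1.84, Mlx at 16.5 ± 0.218 and Mnt at 14.1 ± 0.135. Wild-type cells had Myc at 80.2 ± 1.65 RPKM, Max at 29.5 ± 1.17, Mxi1 at 25.4 ± 0.322 and Mnt at 15.04 ± 1.61 (SD, n = 2 throughout). Mxi1 was at rank 3 in the rescue at 23.0 ± 6.11 RPKM, at rank 6 in the KO at 11.7 ± 0.476 and at rank 3 in wild type. Mxd3, Mxd1 and Mycl held the last places in every group, down to 0.561 ± 0.0108 RPKM for Mycl in the rescue, 0.587 ± 0.221 in the KO and 3.23 ± 0.209 in wild type. Neighbours whose ranges overlapped were Mnt with Mlx and Mlx with Mxd4 in the rescue, Mnt with Mxd4 and Mxd4 with Mxi1 in the KO, and Mnt with Mxd4 in wild type, so the order within these pairs is not resolved.

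The summed RPKM of Myc and Mycl was 73.5 and 83.7 in the rescue, 57.5 and 49.2 in the KO, and 82.4 and 84.4 in wild type. That of the 5 repressor genes Mxi1, Mxd1, Mxd3, Mxd4 and Mnt was 55.6 and 62.3 in the rescue, 48.4 and 51.6 in the KO, and 64.4 and 61.0 in wild type. Both sums were lowest in the KO; of the repressor genes Mxi1 and Mxd1 fell there, Mxd3 rose, and Mxd4 and Mnt did not pass the test. Their ratio was 1.32 and 1.34 in the rescue, 1.19 and 0.954 in the KO, and 1.28 and 1.39 in wild type, the lowest values being those of the KO. Set against Max, the sum of Myc and Mycl was 2.09 and 2.91 times its level in the rescue, 1.499 and 1.38 times in the KO, and 2.88 and 2.79 times in wild type.

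The repressor transcripts also differed in make-up. Mxi1 gave 33.5% and 43.8% of the summed repressor RPKM in the rescue, 24.8% and 21.96% in the KO, and 39.8% and 41.3% in wild type. The share of Mxd3 was 13.8% and 9.22% in the rescue, 19.3% and 16.4% in the KO, and 6.39% and 7.204% in wild type. In the KO the largest share was that of Mnt (28.8%) in the first library and that of Mxd4 (29.8%) in the second, where Mxi1 led in all rescue and wild-type libraries. These are transcript levels, and RPKM of genes with several isoforms depends on the listed length.

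**Figure D3:**
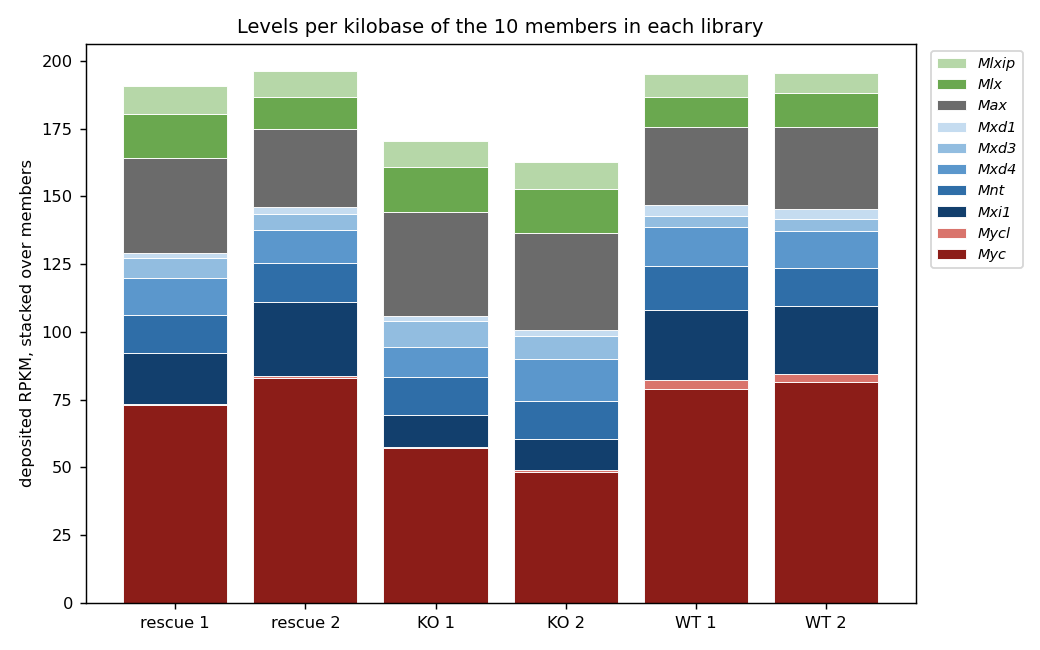
Deposited RPKM (vertical axis) of the 10 members stacked in each library; reds are Myc and Mycl, blues the MXD genes and Mnt, grey Max and greens Mlx and Mlxip. The stacks reach 191 and 196 RPKM in the rescue, 171 and 163 in the KO and 195 and 196 in wild type, and the Mxi1 segment is thinnest in the KO.

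The promoters of the members were searched for the E-box, the site that the network's own dimers bind. RefSeq promoters (GRCm38.p6, 250 bases before to 50 after each annotated start) were available for 9 of the 10 members, Myc being the other. The E-box CACGTG, which reads alike on both strands, stood in the windows of Max, Mnt, Mxd4 and Mlx. These 4 stretches are shown because they hold the site; Mycl, Mxd1, Mxd3, Mxi1 and Mlxip had no CACGTG in their windows. Capitals mark the E-box in each stretch, written 5′ to 3′ on the gene's strand.
Max, chr12:76962219-76962278, minus strand: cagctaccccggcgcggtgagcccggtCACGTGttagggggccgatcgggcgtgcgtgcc
Mnt, chr11:74830774-74830833, plus strand: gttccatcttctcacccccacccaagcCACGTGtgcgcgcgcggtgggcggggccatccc
Mxd4, chr5:34187897-34187956, minus strand: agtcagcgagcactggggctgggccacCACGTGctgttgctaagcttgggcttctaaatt
Mlx, chr11:101087223-101087282, plus strand: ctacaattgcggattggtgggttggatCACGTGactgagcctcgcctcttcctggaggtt
Counted from the annotated start, the E-box stood at position -3 in Max, -123 in Mnt, -219 in Mxd4 and -40 in Mlx. Of all 27025 gene symbols with a promoter, 8.09% had a CACGTG, and of the 9495 tested genes with a promoter 11.9% did. A match is a description of letters and does not show binding.

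Mxi1 had no CACGTG in its windows. The shorter ACGTG, a form of the core read by hypoxia-inducible factors and part of every CACGTG, was found there. On either strand it was in 21.8% of all symbols and in 29.6% of the 9495 tested genes with a promoter. It is printed because Mxi1 had the largest difference between the rescue and the KO among the members. Another ACGTG, not printed, stood at position -25 from a different annotated start of Mxi1. The stretch shown has ACGTG in capitals at position -66 from the start of its own window's transcript.
Mxi1, chr19:53329320-53329378, plus strand: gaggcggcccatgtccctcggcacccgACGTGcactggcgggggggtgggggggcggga
A looser form of the E2F site, TTTNNCGC on either strand, was in none of the 9 members' windows, which says only that these letters are not there. It was in 5.93% of all symbols and in 9.99% of the tested genes with a promoter.

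Genes in a hand-written list of targets that MYC activates were mostly higher in the KO, in which Myc was lower. Of 40 tested targets 32 rose in the KO and 2, Ldha and Tert, fell, with a median log2 fold change of 0.74 against 0.01 over all genes tested, of which 23.2% rose. Srm, the spermidine synthase gene, had 86.6 and 71.1 normalised CPM in the rescue, 131 and 121 in the KO, and 50.9 and 59.0 in wild type. Cad, which encodes the first enzymes of pyrimidine synthesis, had 262 and 233 in the rescue, 345 and 301 in the KO, and 165 and 176 in wild type. For both genes the KO was highest and wild type lowest, without overlap.

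The purine synthesis gene Gart rose in the KO by a log2 fold change of 0.89 (adjusted p = 2.4e-05) and the nucleoside diphosphate kinase gene Nme1 by 1.07 (adjusted p = 2.4e-05), with exons of Nme1 shared with the read-through gene Gm20390. The part of Gm20390 in the Nme1 counts was not tested. In the rescue 12 of the 40 targets were lower than in the KO and 1, Ldha, was higher, with a median of -0.30; of all genes tested 5.88% were lower. Srm fell by 0.68 (adjusted p = 0.0038), Nme1 by 0.60 (adjusted p = 0.0060), Cad by 0.38 (adjusted p = 0.023) and Gnl3, a nucleolar GTPase gene, by 0.37 (adjusted p = 0.026). The calls of Cad and Gnl3 held in 6 and 5 of 12 alternative fits. The count of lower targets depended on the fit, as did the calls over all genes. DESeq2 called 4 targets lower, with 378 of all genes lower where edgeR called 726. On leaving out 1 library the targets' median ranged from -0.38 without the first rescue library to -0.16 without the second. It stayed at -0.30 without either wild-type library.

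Against wild type 25 of the 40 targets were higher in the rescue and none was lower, with a median of 0.44. Over all genes tested 10.2% were higher and 12% lower, with a median of 0.01. At an unadjusted p under 0.05 1 target was lower. DESeq2 called 21 targets higher and 0 lower, beside 751 and 1086 of 12339 genes. Mybbp1a, a nucleolar protein gene, was higher by 0.65 (adjusted p = 5.3e-04), Ncl, the nucleolin gene, by 0.57 (adjusted p = 0.0017) and Nolc1, a nucleolar chaperone gene, by 0.75 (adjusted p = 0.0018). The median of the targets was 0.27 on leaving out the first rescue library. It was 0.38 or 0.48 on leaving out the first or the second library of wild-type cells. The CACGTG was in the promoter windows of 9 of 34 targets with an entry (26.5%). Nme1 and Hspd1, which encodes a mitochondrial chaperone, are shown as targets that rose in the KO, and Ldha, a lactate dehydrogenase gene, as a target that fell, with the later of its 2 E-boxes.
Nme1, chr11:93968022-93968081, minus strand: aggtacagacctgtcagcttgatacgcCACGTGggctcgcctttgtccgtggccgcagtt
Hspd1, chr1:55088291-55088350, minus strand: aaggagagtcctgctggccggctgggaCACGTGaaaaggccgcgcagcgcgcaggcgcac
Ldha, chr7:46845729-46845788, plus strand: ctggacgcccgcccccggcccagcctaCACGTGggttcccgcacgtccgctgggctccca
Over all tested genes with a promoter, CACGTG was found in 15.6% of those higher in the KO, and 10.1% of those lower, values given as a description without a test.

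Genes in a hand-written list of those lowered by MYC were mostly lower in the KO as well. Of 11 listed, 10 were tested, 9 fell and none rose (none at an unadjusted p under 0.05 or by DESeq2 either), with a median log2 fold change of -1.19; 23.5% of all genes fell. The list holds CDK inhibitor genes with stress and growth arrest genes. Cdkn1a, the p21 cell cycle inhibitor gene, had 54.9 and 110.7 normalised CPM in the rescue, 35.3 and 19.1 in the KO, and 208 and 176 in wild type. Its fall in the KO was 2.79 on the log2 scale (adjusted p = 2.7e-05), and it was higher by 1.57 in the rescue than in the KO (adjusted p = 0.0077). Gas1, a growth arrest gene, fell by 3.33 in the KO (adjusted p = 4.0e-07) and was still lower in the rescue than in wild type (log2 fold change -3.57, adjusted p = 4.2e-07).

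The stress genes Gadd45a and Ndrg2 fell in the KO by 0.99 and 1.40, and both were higher in the rescue than in the KO, by 0.73 and 0.71 (adjusted p = 0.0055 each). In all, 6 of 10 were higher in the rescue than in the KO and none was lower, also at an unadjusted p under 0.05, beside 8.35% higher and 5.88% lower over all genes. DESeq2 called 5 of them higher, beside 796 of 12339 genes. Thbs1, which encodes thrombospondin, was highest in the rescue, at 216 and 349.9 normalised CPM, with 93.1 and 67.6 in the KO and 163 and 148 in wild type. Against wild type it was the 1 gene of the list that was called higher in the rescue (log2 fold change 0.86, adjusted p = 0.0079), and 5 others were lower, beside 10.2% higher and 12% lower over all genes. DESeq2 called 3 lower and 0 higher, so that Thbs1 was not called, beside 1086 and 751 of 12339 genes. On leaving out 1 library the Thbs1 difference ranged from 0.48 to 1.16.

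**Figure D4:**
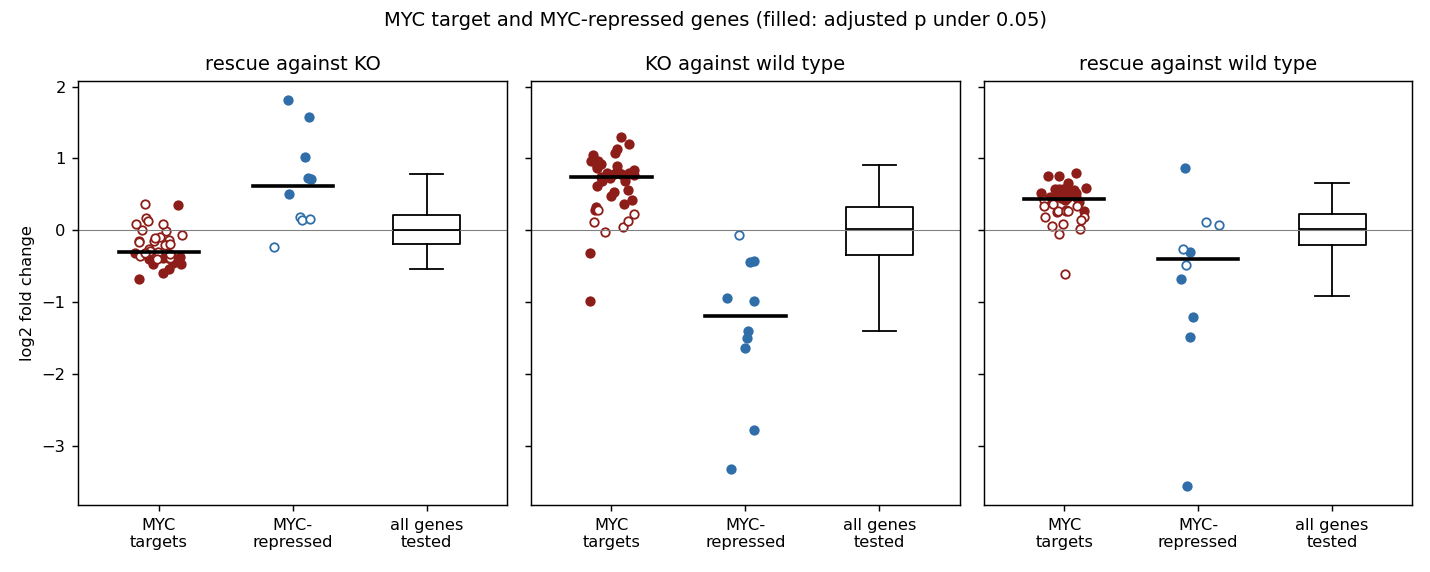
Log2 fold changes (vertical axis) of 40 MYC target and 10 MYC-repressed genes in the 3 comparisons, as points (filled where the adjusted p is under 0.05) with the list median as a bar; the box shows all 12339 genes tested (quartiles, whiskers at the 5th and 95th percentiles). For the KO against wild type the medians lie at 0.74 and -1.19, with that of all genes at 0.01.

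Of the 2 listed glucose-responsive genes read by MLXIP with MLX, 1 was called lower in the KO, beside 23.5% of all genes tested. A single call does not show that the pair differed as a set. Txnip, an inhibitor of thioredoxin and glucose uptake, had 61.8 and 61.5 normalised CPM in the rescue, 53.7 and 81.1 in the KO, and 67.4 and 71.7 in wild type. The KO libraries lay on either side of the others, and the KO difference was -0.06 (SE 0.15, adjusted p = 0.78). Arrdc4, an arrestin gene with the same regulation, had 2.79 and 4.93 in the rescue, 3.09 and 2.18 in the KO, and 5.58 and 4.30 in wild type. It fell in the KO (log2 fold change -0.86, SE 0.32, adjusted p = 0.042), a call lost in 6 of 12 alternative fits.

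The relatives Mga and Mycn did not pass the test in any comparison, by edgeR or DESeq2; Mycn was called lower in the rescue, against the KO and against wild type, in 2 of 12 alternative fits each, those with no filter and without the first rescue library. At an unadjusted p under 0.05 1 was lower in the rescue, both against the KO and against wild type. Mga, a MAX partner gene, had 153 and 184 normalised CPM in the rescue, 159 and 148 in the KO, and 173 and 161 in wild type. Mycn had 2.16 and 0.799 in the rescue, 2.67 and 4.01 in the KO, and 3.92 and 3.13 in wild type. Mlxipl, which encodes the liver paralog ChREBP, had at most 0.133 CPM and was not tested.

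Genes with the profile most like that of Myc were sought by the Euclidean distance between centred log2 CPM over the 6 libraries, among 10251 other genes with a mean of at least 5 CPM. The nearest were Jmjd6 (a hydroxylase gene, distance 0.0813), Lca5 (a ciliary gene, 0.114), Klf2 (a zinc finger factor gene, 0.115), Ets1 (an ETS factor gene, 0.126) and Sertad2 (0.137). Jmjd6 had 132 and 156 normalised CPM in the rescue, 99.0 and 85.1 in the KO, and 162 and 158 in wild type. The direction of their differences is fixed by this choice. Of the other members Mxi1 came closest, at rank 1673 with a distance of 0.603, since its KO difference was larger. The 6 libraries form 3 groups, so the likeness rests largely on 3 group means.

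Myc shares chromosome 15 with Irak4, and most genes round it that were called were lower in the KO too. Distances here run between listed start coordinates. Within 5 Mb of Myc 32 other genes were tested, of which 18 fell and 6 rose, with a median log2 fold change of -0.33. On chromosome 15 without Myc, 196 of 490 genes fell and 59 rose, with a median of -0.19. Over all genes tested 23.5% fell and 23.2% rose, with a median of 0.01. The nearest, Pvt1, a long non-coding RNA gene that starts 52.6 kb from Myc, had 11.7 and 14.0 normalised CPM in the rescue, 10.9 and 10.2 in the KO, and 16.4 and 16.7 in wild type.

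Pvt1 fell in the KO by 0.65 on the log2 scale (SE 0.15, adjusted p = 0.0045). Its difference between the rescue and the KO was 0.28 (adjusted p = 0.27). Fam84b, at -1166.3 kb from Myc, went the other way, with 128 and 99.6 normalised CPM in the rescue, 219 and 211 in the KO, and 126 and 137 in wild type (log2 fold change in the KO 0.71, adjusted p = 3.2e-04). The gene 9930014A18Rik beside it also rose in the KO (0.75, adjusted p = 0.016), and Fam49b, 1943.8 kb after Myc, fell by 0.26 (adjusted p = 0.029). These calls held in 7 of 12 alternative fits for 9930014A18Rik and in 6 of 12 for Fam49b. In the rescue the median of the 32 genes was -0.27 against wild type and 0.02 against the KO, while Myc itself differed by -0.10 and 0.63. Against wild type 10 of the 32 genes were lower in the rescue and 1 was higher. On chromosome 15 without Myc 139 of 490 were lower and 16 higher, with a median of -0.21, beside 12% lower and 10.2% higher over all genes tested. The part of the chromosome in the Myc difference was not tested.

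**Figure D5:**
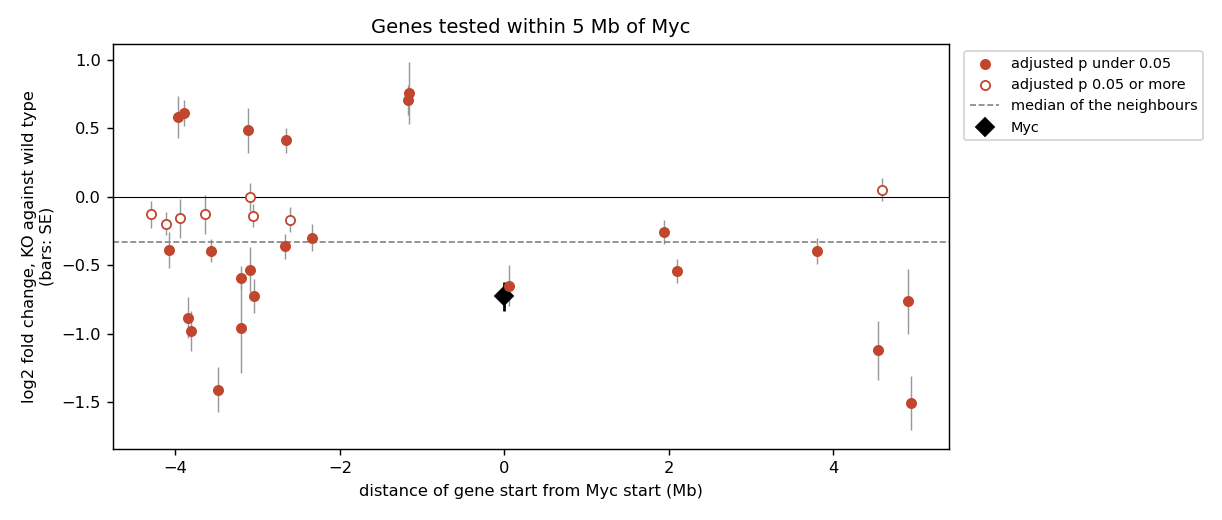
Log2 fold change in the KO against wild type (vertical axis, bars are SE) of the 32 genes tested within 5 Mb of Myc, by the distance of their start from that of Myc in Mb (horizontal axis); filled points have an adjusted p under 0.05, the diamond is Myc, and the dashed line is the neighbours' median, -0.33. Genes on both sides of Myc lie mostly below 0, and the 2 genes nearest before it are among the 6 called above 0.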

How the data were processed

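RNA-seq libraries of KP2 cells were analysed from the deposited gene tables. Per the submitters' processing notes, the tools listed are bcl2fastq, STAR 2.0.4b, Subread and featureCounts 1.45 with the build GRCm38; the sources used here give neither a strand setting nor an annotation release. Per the file headers, the tables hold counts, CPM and RPKM of 41388 genes. The authors' CPM is the count scaled by the file's total, and their RPKM divides this CPM by the listed length in kilobases. Symbols came from GENCODE M21 (40254 identifiers matched) and promoters from RefSeq (GRCm38.p6).

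Counts were tested in R 4.3.3 with the quasi-likelihood test of edgeR 4.0.16 fitted to the 6 libraries by group (3 residual degrees of freedom). TMM scaling was used, after filterByExpr (minimum count 10, minimum total 15) kept 12339 genes. The Benjamini-Hochberg adjustment ran over those genes, with calls at an adjusted p under 0.05. Normalised CPM in the text uses TMM-scaled library sizes; SE is the fold change over the square root of F. Precision is limited by 7605328 to 11505983 counts per library and n = 2. Chi-square per degree of freedom between the libraries of a group, scaled by their totals, was 7.68 in the rescue, 3.94 in the KO and 3.38 in wild type. This is more spread than counting noise alone gives. It cannot tell separate cultures from technical repeats, since technical differences also raise it. Same-numbered libraries did not deviate together, with correlations of -0.192, -0.153 and 0.037.

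The members and the hand-written gene lists were chosen with earlier results of these data known. Their shares beside those of all genes are therefore descriptions and not tests. Named besides the members and Irak4 were up to 4 called genes per list and comparison with the smallest adjusted p, lists of 6 or fewer in full, the 5 genes nearest Myc in profile and its 4 nearest tested neighbours. Ldha, Tert and Hspd1 were named after their values were seen. Alternatives were DESeq2 1.42.0, upper-quartile scaling, no filter, a stricter filter, only the groups compared, a replicate block and leaving out each library.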

Additional observations from a re-analysis of the deposited data

How the results depend on the processing

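Over 12 alternative fits the falls of Myc, Mycl, Mxi1 and Mxd1 and the rise of Mxd3 in the KO kept their direction and passed in each. Members called numbered 5 to 8 without 1 library for the KO against wild type, 1 to 4 for the rescue against the KO, and 1 to 6 for the rescue against wild type. MYC targets called without 1 library numbered 27 to 35, 1 to 26 and 7 to 33 in the same order. For the rescue against the KO 13 targets were called in the main fit, beside 1030 genes higher and 726 lower of 12339. DESeq2 called 5 targets, beside 796 and 378 of 12339 genes. With no filter 20 were called, beside 1346 and 1076 of 22508 genes. With only the groups compared 4 were called, beside 667 and 377 of 11896 genes. With the replicate block 6 were called, beside 765 and 429 of 12339 genes. The replicate block, whose numbers only share a label, called 5, 2 and 3 members in the 3 comparisons, the same counts as without it. Of all 12339 genes it called 2572 higher and 2631 lower, 765 and 429, and 941 and 1216 in the same order. A window of 1 Mb round Myc held 1 tested gene, with a log2 fold change of -0.65.

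Some differences that did not pass with all libraries changed sign or reached 0 on leaving 1 out, the cause not tested. For the rescue against the KO they ranged from -0.39 to 0.02 for Mlx, -0.22 to 0.39 for Mxd1, -0.18 to 0.28 for Mxd4, -0.33 to 0.44 for Mycl, -0.01 to 0.26 for Mga, -0.39 to 0.19 for Txnip and -0.04 to 0.11 for Fam49b. For the rescue against wild type they ranged from -0.21 to 0 for Myc, -0.09 to 0.18 for Max, -0.04 to 0.38 for Mlx, -0.52 to 0.05 for Mxi1, -0.12 to 0.14 for Mga, -0.81 to 0 for Arrdc4, -0.22 to 0.02 for Klf2, -0.16 to 0.09 for Lca5, -0.05 to 0.19 for Usp22 and -0.16 to 0.58 for 9930014A18Rik. For the KO against wild type they ranged from -0.39 to 0.19 for Mycn and -0.37 to 0.21 for Txnip. Depth limits Mycl, with 17 to 25 counts in each rescue and KO library.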

Other observations

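Genes that set the stability of MYC protein went in both directions in the KO, with 5 of 18 higher and 5 lower. Of all genes 23.2% rose and 23.5% fell. With the replicate block 5 of the 18 were higher and 4 lower, beside 2572 and 2631 of 12339 genes. Pim1 and Pim3 encode kinases of the PIM family, of which PIM1 is known to phosphorylate MYC. Pim1 had 28.4 and 40.0 normalised CPM in the rescue, 15.1 and 15.4 in the KO, and 52.1 and 43.4 in wild type, and Pim3 had 122 and 149.7 in the rescue, 86.2 and 77.6 in the KO, and 207 and 176 in wild type. Both had the KO lowest and wild type highest without overlap, with log2 fold changes of -1.64 and -1.22 in the KO (adjusted p = 1.7e-05 and 1.3e-05) and 1.16 and 0.73 in the rescue against the KO (adjusted p = 0.0026 and 0.0036). Cip2a and Set, whose products inhibit the phosphatase PP2A, rose in the KO by 0.60 and 0.69 (adjusted p = 2.1e-04 and 2.3e-04) and were higher in the rescue than in wild type by 0.52 and 0.37 (adjusted p = 0.0016 and 0.026). Plk1, a mitotic kinase gene, likewise rose in the KO, by 0.61, and was higher in the rescue than in wild type by 0.38 (adjusted p = 0.021). The deubiquitinase gene Usp22 was higher in the rescue than in the KO by 0.34 (adjusted p = 0.034), a call that held in 5 of 12 alternative fits.

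Among 17 MYC cofactor genes 6 rose and 2 fell in the KO, beside 23.2% and 23.5% of all genes. DESeq2 called 3 higher and 0 lower, beside 2036 and 2346 of 12339 genes. Their median log2 fold change of 0.18 was 0.13 without the first wild-type library. Kat2a, which encodes the acetyltransferase GCN5, had 84.2 and 77.0 normalised CPM in the rescue, 100.04 and 87.0 in the KO, and 46.3 and 55.0 in wild type, a log2 fold change of 0.88 in the KO (adjusted p = 8.1e-05). Aurka, Ruvbl1 and Smarcb1 rose in the KO by 0.43, 0.48 and 0.30 (adjusted p = 0.0042, 0.0085 and 0.014), and none of the 17 was called between the rescue and the KO by edgeR or DESeq2, where at an unadjusted p under 0.05 1 was higher and 2 lower. The acetyltransferase gene Ep300 was lower in the rescue than in wild type by 0.33 on the log2 scale (adjusted p = 0.019). It also fell in the KO, by 0.24, a call that held in 4 of 12 alternative fits. Of 11 corepressor genes used by MXD proteins and MNT 3 rose in the KO, near the 23.2% of all genes, and none fell (0 at an unadjusted p under 0.05 and by DESeq2), namely Rbbp7, Ncor1 and Rbbp4, by 0.35, 0.31 and 0.28 (adjusted p = 0.0037, 0.011 and 0.019). Sap30, a SIN3 subunit gene, was higher in the rescue than in wild type by 0.40 (adjusted p = 0.0070), a call lost without either wild-type library.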
